A study of Mus musculus with 6 samples.

Results

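RNA sequencing was used to follow 10 genes that mark reactive astrocytes in the contused mouse spinal cord: Gfap, Vim, Nes, Lcn2, Serpina3n, Cd44, Emp1, Steap4, S1pr3 and Tm4sf1. They were chosen by name from the deposited table of 37475 genes, all 10 were listed there, and all 10 were among the 22114 genes with enough counts to be tested. The animals were wild-type mice, of a strain and age not given in the sources used here, and every animal had its cord bruised by a blow (contusion) at T10. In the syringin group 3 mice then received the plant phenylpropanoid glucoside syringin by intraperitoneal injection at 50 mg/kg each day, and in the PBS group 3 mice received phosphate-buffered saline, the vehicle, by the same route. Cord tissue was taken on day 3 after the injury, and the labels call the 3 samples of a group biological replicates. Uninjured cord was not analysed here, so the values compare injured cords with injured cords and do not show which of these genes the injury itself had changed.

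Astrocytes answer damage to the central nervous system by a graded change called reactivity, in which they enlarge, strengthen their intermediate filament skeleton and, around a lesion, form a border that walls off inflammatory cells. The filament proteins GFAP, vimentin and nestin are the classical signs of this state, and secreted proteins, surface receptors and small membrane proteins are switched on beside them, in large part through cytokines that signal by gp130 and STAT3. Studies in mice have described a set of genes raised in most forms of reactivity (pan-reactive), a set raised after inflammatory stimuli (A1) and a set raised after ischaemia (A2). Several of the 10 genes are also active in other cells of an injured cord: Vim and Cd44 in macrophages, fibroblasts and endothelium, Tm4sf1 in endothelium, Nes in endothelium and ependyma, and Lcn2 in neutrophils.

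The library totals were 65.6 to 78.8 in the syringin group and 66.8 to 74.5 in the PBS group (units of 1e+06 counts). Counts that are multiples of 4 were over-represented (a count of 4 was 1.51 times as common as 3 and 5 on average); the cause was not tested. Were each fragment counted 4 times, the lowest count of any of the 10 genes in a library, 561 for Steap4, would stand for 140.2 fragments and a counting error of 8.44%, and the counting error of the other 9 genes would be at most 3.96%. The libraries differed in tissue content in a way the groups do not explain: Scn10a, a sodium channel gene of sensory ganglion neurons, which lie outside the cord, had 3558, 0 and 818 counts in syringin libraries 1 to 3, and 3429, 15 and 0 in PBS libraries 1 to 3. A count of 0 allows up to 3, from counting error only.

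The start regions of 4 of the genes are shown because the results turn on them: the 3 genes that passed the test (Emp1, Cd44 and Vim) and Gfap, the best known of the set, which did not. Each line gives 240 bases before and 10 bases after the RefSeq start of transcription, read 5′ to 3′ along the gene, from RefSeq on build GRCm38.p6. Emp1 has another start in RefSeq, and the one farther upstream is shown. Capitals mark matches to the STAT consensus TTCNNNGAA, the AP-1 consensus TGACTCA or the NF-kB consensus, searched on both strands.
Emp1 (chr6:135362691-135362940, plus strand): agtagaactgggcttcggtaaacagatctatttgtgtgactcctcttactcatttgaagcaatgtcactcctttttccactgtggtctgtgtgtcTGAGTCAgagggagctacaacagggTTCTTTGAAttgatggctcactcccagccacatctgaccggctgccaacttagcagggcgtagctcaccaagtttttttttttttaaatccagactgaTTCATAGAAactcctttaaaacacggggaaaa
Cd44 (chr2:102901656-102901905, minus strand): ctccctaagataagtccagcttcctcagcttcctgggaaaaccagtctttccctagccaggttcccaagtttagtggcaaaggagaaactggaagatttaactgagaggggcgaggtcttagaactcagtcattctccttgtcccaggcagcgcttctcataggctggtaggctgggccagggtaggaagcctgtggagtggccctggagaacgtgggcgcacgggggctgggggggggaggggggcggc
Vim (chr2:13574071-13574320, plus strand): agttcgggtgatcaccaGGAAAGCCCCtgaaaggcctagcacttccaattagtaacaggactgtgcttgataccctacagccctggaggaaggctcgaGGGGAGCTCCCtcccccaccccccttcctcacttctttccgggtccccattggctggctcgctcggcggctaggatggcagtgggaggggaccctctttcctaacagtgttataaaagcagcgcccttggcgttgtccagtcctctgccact
Gfap (chr11:102897191-102897440, minus strand): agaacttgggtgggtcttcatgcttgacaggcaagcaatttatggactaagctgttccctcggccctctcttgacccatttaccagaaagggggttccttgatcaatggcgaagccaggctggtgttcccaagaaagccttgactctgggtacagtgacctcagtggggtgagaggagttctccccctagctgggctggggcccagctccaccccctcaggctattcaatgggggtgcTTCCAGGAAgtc
Over windows from 250 bases before to 50 after the start, Emp1 held 2 STAT matches and 1 AP-1 match, Vim held 3 NF-kB matches of which 2 overlap, Gfap held 1 STAT match that spans the start itself, and Cd44 held no match to these letters. RefSeq lists 11 promoters for the 10 genes, since Emp1 has more than 1 start. Counted per promoter, 3 of the 11 had a STAT match (Gfap, Emp1 and Steap4), against 8.3% of 32851 RefSeq promoters. An AP-1 match lay in 1 of the 11 (Emp1), against 5.2% of all promoters, and an NF-kB match in 3 (Vim, Steap4 and Tm4sf1), against 8.46%. These matches are descriptions of the letters and not of binding.

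Emp1, Cd44 and Vim rose in the syringin group, none of the 10 fell, and the other 7 did not pass an adjusted p of 0.05 (edgeR's quasi-likelihood test, Benjamini-Hochberg adjusted over all 22114 genes). At an unadjusted p under 0.05, 6 were higher and 0 lower by edgeR; DESeq2 called 6 higher and 0 lower, adding Serpina3n, S1pr3 and Tm4sf1, and limma-voom 3 and 0. Of all genes tested, 5.01% passed, 1.62% as higher and 3.39% as lower in the syringin group. Over the same 22114 genes, 5214 had an unadjusted p under 0.05 by edgeR. DESeq2 called 1401 of them higher and 1790 lower, and limma-voom 311 higher and 741 lower. The fold change was positive for 9 of the 10 genes, Gfap being the exception, and the median log2 fold change was 0.48, against 0.01 over all genes tested. The 3 syringin values lay above the 3 PBS values for 6 of the 10 genes (Vim, Serpina3n, Cd44, Emp1, S1pr3 and Tm4sf1) and below them for none. Over all genes tested, 30.0% did not overlap, 14.7% with the syringin values above and 15.3% with them below. The genes were chosen with earlier results of these data known, so these counts describe the set and are no test of it. In bulk tissue, a change in the number of cells of a type and a change in RNA per cell cannot be told apart.

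**Figure D1:**
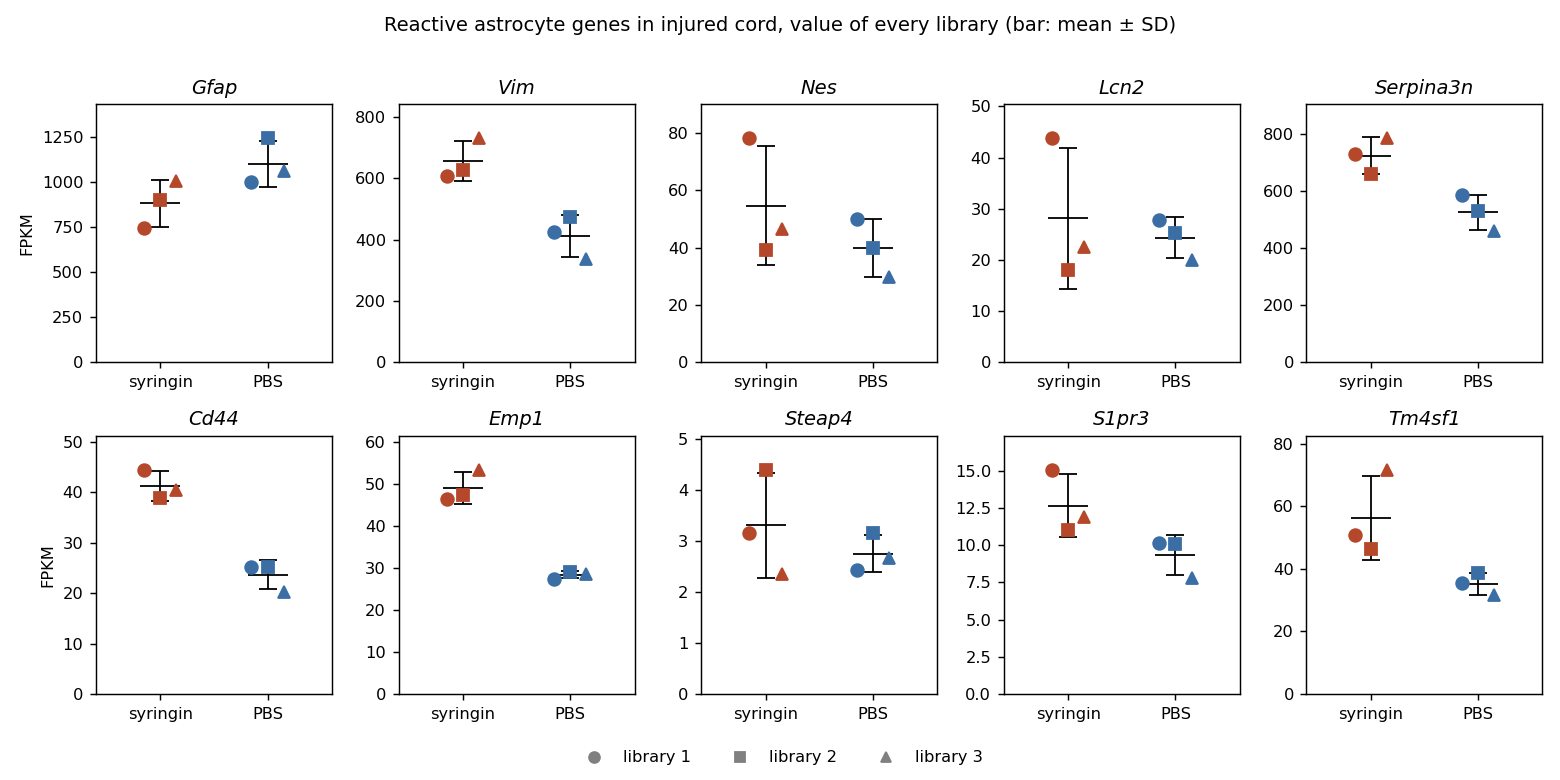
FPKM of each of the 10 genes (y axis, from 0) in the 3 syringin libraries (left, red) and the 3 PBS libraries (right, blue), with marker shape for the library number and black bars for the mean ± SD (n = 3 in each group). For Vim, Serpina3n, Cd44, Emp1, S1pr3 and Tm4sf1 all red points lie above all blue points; syringin library 1 stands above the rest for Nes and Lcn2.

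The 10 genes covered a wide range of abundance. On the FPKM scale, which divides by transcript length and library size, Gfap averaged 992 over the 6 libraries, Serpina3n 626 and Vim 534, and these 3 ranked 32, 39 and 47 of the 37475 genes. Nes, Tm4sf1, Emp1, Cd44 and Lcn2 formed a middle group with mean levels of 47.3, 45.8, 38.7, 32.4 and 26.3 FPKM. S1pr3 averaged 11.01 FPKM and Steap4 3.03 FPKM. Within this middle group the order is not firm: Tm4sf1 ranged from 46.5 to 71.75 FPKM in the syringin and from 31.5 to 38.6 FPKM in the PBS libraries, which overlaps the range of Nes in each group.

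Of the 3 filament genes, Vim rose, and Gfap and Nes did not pass. Gfap (ENSMUSG00000020932, chromosome 11), the main intermediate filament gene of mature astrocytes, had 744, 901 and 1003 FPKM in syringin libraries 1 to 3, against 999, 1244 and 1059.6 FPKM in PBS libraries 1 to 3. The groups overlap, because syringin library 3 lay above PBS library 1. Its log2 fold change, syringin minus PBS, was -0.29 ± 0.16 (standard error; adjusted p = 0.326, edgeR), with a 95% interval of -0.67 to 0.08. Vim (ENSMUSG00000026728, chromosome 2), which encodes the filament protein vimentin that copolymerises with GFAP, had 609, 627 and 731 FPKM in the syringin libraries, against 424, 473 and 338 FPKM in the PBS libraries. Every syringin value was above every PBS value. Vim rose by 0.70 ± 0.16 on the log2 scale, a factor of 1.62 (edgeR adjusted p = 0.0470, close to the threshold). Nes (ENSMUSG00000004891, chromosome 3), the nestin gene of neural progenitors and reactive astrocytes, had 78.3, 39.3 and 46.4 FPKM in the syringin libraries, against 50.1, 40.0 and 29.9 FPKM in the PBS libraries. Syringin library 1 was the highest, and syringin library 2 lay below PBS library 1 and near PBS library 2, so the groups overlap. The change in Nes, 0.47 ± 0.26 (edgeR adjusted p = 0.337), has a 95% interval of -0.15 to 1.08. Without syringin library 1 the log2 fold change of Nes was 0.14, and without PBS library 3 it was 0.29. Nes was highest, in each group, in library 1, where Scn10a was highest too. A part of ganglion tissue in this was not tested. With a covariate for ganglion transcripts the log2 fold change of Nes was 0.37 (edgeR adjusted p = 0.177). The covariate is the mean level of 14 ganglion markers in each library. They include Nefh, which cord neurons also use and which was itself called lower in the syringin group, so it can carry part of the group difference.

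The call for Vim was lost without any of 5 libraries. Its adjusted p (edgeR) was 0.119, 0.0925 and 0.200 without PBS library 1, 2 or 3, and 0.0322, 0.0970 and 0.115 without syringin library 1, 2 or 3, with log2 fold changes between 0.57 and 0.81. On log2(FPKM + 0.1) with limma the adjusted p of Vim was 0.0528, and by DESeq2 it was 0.000307.

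Neither gene of a secreted protein passed. Serpina3n (ENSMUSG00000021091, chromosome 12), which encodes a secreted inhibitor of serine proteases and is a strong mark of reactive astrocytes in mice, had 729, 659.7 and 787 FPKM in the syringin libraries, against 587, 529.85 and 462 FPKM in the PBS libraries. The groups did not overlap, yet the change of 0.49 ± 0.13 missed the threshold (edgeR adjusted p = 0.0682); its 95% interval is 0.20 to 0.78. DESeq2 gave it an adjusted p of 0.00359, and edgeR with the ganglion covariate 0.0344. Serpina3n lies in a cluster of close paralogues, between which shared reads could be split in a way the sources used here do not give. Of the 10 genes of this cluster in the table, 3 had too few counts to be tested, among them Serpina3j with 0 in every library, while Serpina3c, Serpina3f, Serpina3g, Serpina3h, Serpina3i and Serpina3m averaged at most 2.92 FPKM in the syringin group and 2.92 FPKM in the PBS group. None of these 6 passed by edgeR, DESeq2 or limma-voom, and 0 had an unadjusted p under 0.05.

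Lcn2 (ENSMUSG00000026822, chromosome 2), the gene of lipocalin 2, which binds iron-carrying siderophores and is released by astrocytes and neutrophils, had 43.8, 18.1 and 22.6 FPKM in the syringin libraries, against 27.9, 25.3 and 19.9 FPKM in the PBS libraries. Syringin library 1 was the highest of the 6 and syringin library 2 the lowest, so the PBS values lay inside the range of the syringin values. Its coefficient of variation was 46.1% in the syringin group, the largest of the 10 genes, and 16.7% in the PBS group. The log2 fold change was 0.22 ± 0.29 (edgeR adjusted p = 0.709), with a 95% interval of -0.46 to 0.90, and it was -0.22 without syringin library 1. In each group Lcn2 was highest in library 1, where Scn10a was highest too. Syringin library 3, with 818 Scn10a counts, had less Lcn2 than PBS library 2, with 15. With the ganglion covariate the log2 fold change of Lcn2 was 0.08 (edgeR adjusted p = 0.850). A part of ganglion tissue in these values was not tested. The summed level of 14 neutrophil markers was 227, 191 and 93.3 CPM (counts per 1e+06 after library scaling) in syringin libraries 1 to 3, against 154, 198 and 130.5 CPM in PBS libraries 1 to 3; no marker was at 0 in any library, 2 passed as higher and 1 as lower, and their part in the level of Lcn2 was not tested. Among the partners of Lcn2, the receptor gene Slc22a17 had a value of -0.60 ± 0.14 (edgeR adjusted p = 0.0521) and the receptor gene Lrp2 0.45 ± 0.23 (adjusted p = 0.283).

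Among the surface receptors, Cd44 rose and S1pr3 did not pass. The fold change of Cd44 was the largest of the 10 genes, though that of Emp1 was within its standard error. Cd44 (ENSMUSG00000005087, chromosome 2) encodes the receptor for the matrix sugar hyaluronan. It had 44.5, 38.8 and 40.4 FPKM in the syringin libraries, against 25.3, 25.3 and 20.3 FPKM in the PBS libraries. The lowest syringin value was well above the highest PBS value. Cd44 rose by 0.83 ± 0.11 on the log2 scale, a factor of 1.77 (edgeR adjusted p = 0.0139). Of the 11 other genes of hyaluronan handling that were tested, Msn, which encodes moesin, a linker of CD44 to actin, rose by 0.54 ± 0.11 (edgeR adjusted p = 0.0410), none fell and 10 did not pass (median 0.51). The table lists a gene on the opposite strand over Cd44 and another over S1pr3, with at most 0 and 26 counts in a library. S1pr3 (ENSMUSG00000067586, chromosome 13), a receptor for sphingosine 1-phosphate, had 15.1, 11.01 and 11.92 FPKM in the syringin libraries, against 10.15, 10.1 and 7.79 FPKM in the PBS libraries. The groups did not overlap, but the gap between syringin library 2 and PBS library 1 was small. S1pr3 was highest in syringin library 1, while PBS libraries 1 and 2 were nearly level, at 10.15 and 10.1 FPKM. Its change of 0.46 ± 0.14 did not pass (edgeR adjusted p = 0.105; 95% interval 0.13 to 0.79), while DESeq2 gave an adjusted p of 0.0372 and edgeR after correction for transcript length and GC content 0.0473, with a log2 fold change of 0.60.

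None of the 9 other tested genes of the sphingosine 1-phosphate pathway passed by edgeR or limma-voom. At an unadjusted p under 0.05 by edgeR 3 were higher, and DESeq2 called 3 higher. Over all 22114 genes tested, 5214 had an unadjusted p under 0.05 and DESeq2 called 3191, in either direction. On the log2 scale the receptors S1pr1, S1pr2, S1pr4 and S1pr5 had values of -0.07 ± 0.09, 0.67 ± 0.21, 0.41 ± 0.34 and 0.21 ± 0.12. The kinases that make the ligand, Sphk1 and Sphk2, were at 0.48 ± 0.35 and 0.35 ± 0.11. The lyase Sgpl1 and the phosphatase Sgpp1, which remove it, were at 0.53 ± 0.15 and -0.10 ± 0.08, and the exporter Spns2 at 0.06 ± 0.13. Per length, S1pr3 at 12.7 ± 2.15 FPKM in syringin and 9.34 ± 1.35 FPKM in PBS cords (mean ± SD, n = 3 each) stood below S1pr1, at 42.6 ± 2.68 FPKM in syringin and 45.5 ± 2.02 FPKM in PBS cords.

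Emp1 had the smallest p of the 10 genes. Emp1 (ENSMUSG00000030208, chromosome 6), which encodes a small protein with 4 membrane spans, had 46.3, 47.2 and 53.3 FPKM in the syringin libraries, against 27.4, 29.1 and 28.6 FPKM in the PBS libraries. The PBS libraries were nearly alike, with a coefficient of variation of 3.16%, and the syringin libraries, at 9.07%, all stood above them. Emp1 rose by 0.81 ± 0.09, a factor of 1.76 (edgeR adjusted p = 0.0114). Its relative Emp3 rose by 0.62 ± 0.14 (edgeR adjusted p = 0.0499), at the edge of the threshold, Emp2 was at -0.19 ± 0.18, and Pmp22, the relative that peripheral myelin uses, was at -1.16 ± 0.29 (adjusted p = 0.0636). Tm4sf1 (ENSMUSG00000027800, chromosome 3), another small protein with 4 membrane spans, from a different family, had 50.7, 46.5 and 71.75 FPKM in the syringin libraries, against 35.6, 38.6 and 31.5 FPKM in the PBS libraries. All syringin values were above the PBS values, and syringin library 3 stood apart from the other two. Its change of 0.70 ± 0.17 missed the threshold (edgeR adjusted p = 0.0585; 95% interval 0.31 to 1.10); the adjusted p was 0.0387 without syringin library 1, 0.0407 with the ganglion covariate and 0.00268 by DESeq2. Of the other Tm4sf genes, Tm4sf19 had a value of 1.33 ± 0.36 (adjusted p = 0.0759, at 1.64 ± 0.554 FPKM in syringin and 0.66 ± 0.195 FPKM in PBS cords) and 3 had too few counts to be tested.

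Steap4 (ENSMUSG00000012428, chromosome 5), a metalloreductase of iron and copper, had 3.15, 4.40 and 2.36 FPKM in the syringin libraries, against 2.44, 3.15 and 2.67 FPKM in the PBS libraries. Syringin library 2 was the highest and syringin library 3 the lowest. The log2 change of 0.29 ± 0.24 (edgeR adjusted p = 0.519) has a 95% interval of -0.26 to 0.84, and it was 0.01 without syringin library 2. Its relative Steap3, the reductase that frees transferrin iron, rose by 0.62 ± 0.14 (edgeR adjusted p = 0.0437), and Steap1 and Steap2 were at 0.71 ± 0.22 and -0.36 ± 0.16 (adjusted p = 0.105 and 0.226).

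**Figure D2:**
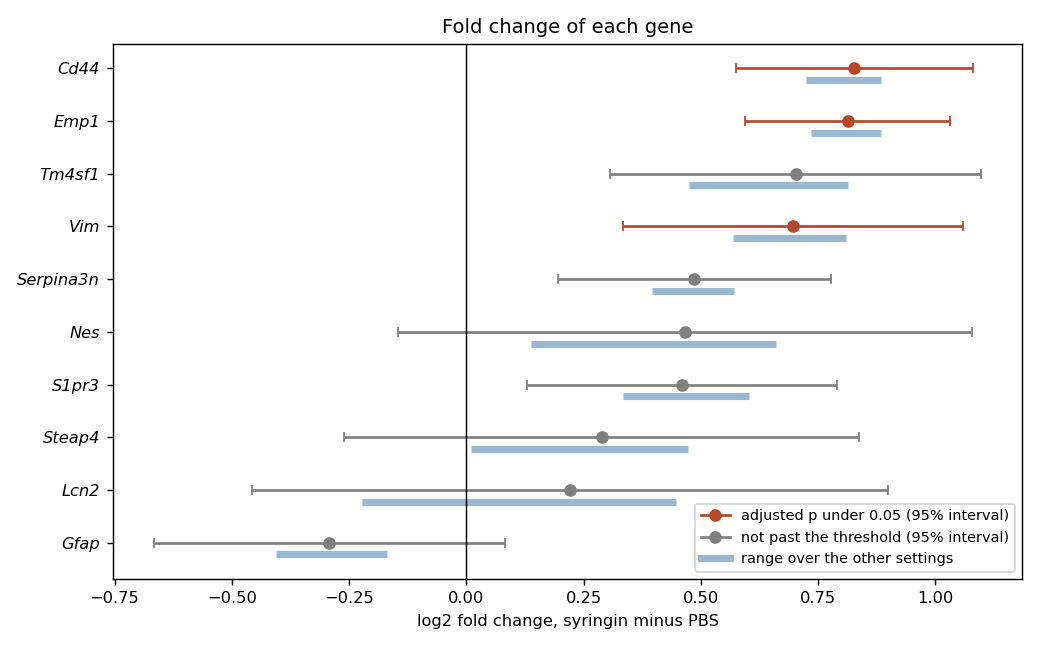
Log2 fold change of each gene, syringin minus PBS (x axis; points with 95% intervals, red where the edgeR adjusted p is under 0.05), with a blue bar for the range over the other ways of processing. Emp1, Cd44 and Vim are past the threshold, and the bar of Lcn2, from -0.22 to 0.45, is the one that crosses 0.

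By edgeR and limma-voom all 3 calls were lost without PBS library 3. Without it edgeR called 0 of 22804 genes, with 3449 at an unadjusted p under 0.05, limma-voom also called 0, and DESeq2 called 1466. Without that library the adjusted p by edgeR was 0.0959 for Emp1 and for Cd44 and 0.200 for Vim, with log2 fold changes of 0.82, 0.73 and 0.57, and DESeq2 gave 7.25e-07, 4.90e-08 and 0.00516. Emp1 and Cd44 passed without each of the other 5 libraries in turn (adjusted p by edgeR at most 0.0482 for Cd44 and 0.0455 for Emp1). PBS library 3 had the lowest level of 6 of the 10 genes, and its log2 CPM relative to the mean of the 6 libraries was -0.63 for Cd44, -0.62 for Vim and -0.39 for Emp1. Syringin libraries 1 and 3 each had the highest level of 4 of the 10 genes.

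**Figure D3:**
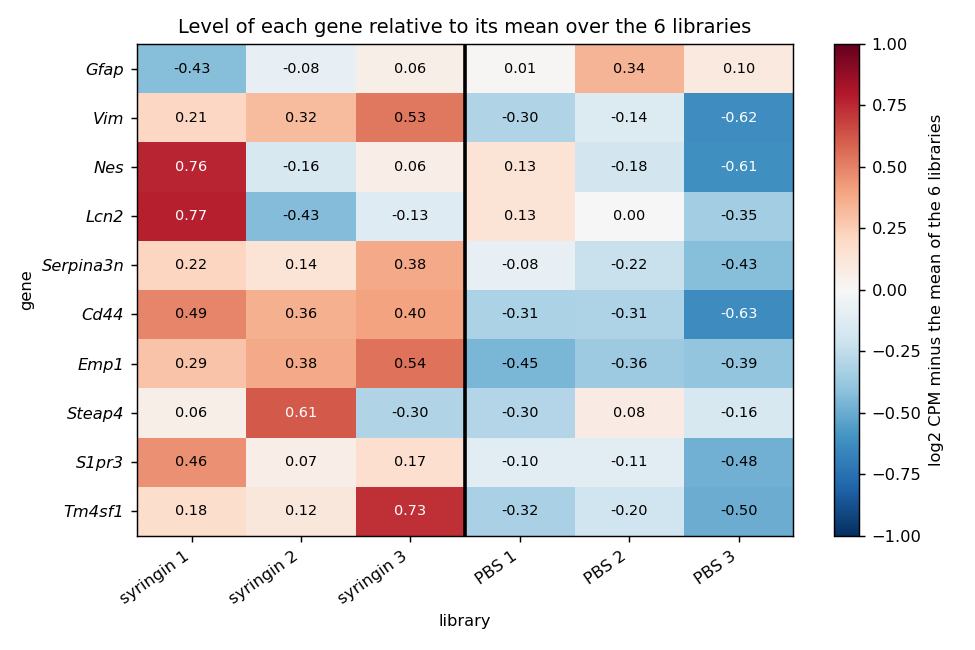
Log2 CPM of each gene (rows) in each library (columns; syringin left of the black line, PBS right of it) minus the gene's mean over the 6 libraries. Red is above and blue below that mean; the column of PBS library 3 is below the mean for every gene but Gfap, and syringin library 1 is highest for Nes and Lcn2, at 0.76 and 0.77.

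Scn10a had 818 or more counts in syringin libraries 1 and 3 and PBS library 1, and at most 15 in the other 3 libraries. Among the libraries with more Scn10a, syringin libraries 1 and 3 differed from PBS library 1 by 0.87, 0.76 and 0.67 for Emp1, Cd44 and Vim (log2 CPM). Among those with less, syringin library 2 differed from PBS libraries 2 and 3 by 0.76, 0.83 and 0.70. For these 3 genes the direction on each side follows from groups that do not overlap, so it adds no support. Lcn2 differed by 0.19 and -0.26, Nes by 0.28 and 0.23, and Gfap by -0.20 and -0.30. Each side holds a group with 1 library, so these values have no test.

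Set against Gfap in the same library, most of the genes stood higher in the syringin group. The ratio of Vim to Gfap in FPKM was 0.819, 0.696 and 0.729 in the syringin libraries, against 0.424, 0.380 and 0.319 in the PBS libraries, with means of 0.748 ± 0.0635 in syringin and 0.375 ± 0.0527 in PBS cords (SD, n = 3 each). This ratio is free of library scaling and does not show which of the genes changed. Of 9 such ratios, 6 had all syringin values above all PBS values, namely those of Vim, Serpina3n, Cd44, Emp1, S1pr3 and Tm4sf1, the same genes that did not overlap on their own. For each of these the two-sided exact permutation p was 0.1, the smallest that 3 libraries against 3 can give. After adjustment over the 9 it was 0.15. This p follows from groups that do not overlap, so it adds no support. All 9 ratios share Gfap, whose own log2 fold change was -0.29, so a gene with no change would also have a higher mean ratio. The count of 6 is therefore no result about these genes. Ratios to Gfap were not computed for other genes, so no share over all genes is given. Serpina3n reached 0.981 of the level of Gfap in syringin library 1, and no more than 0.588 in a PBS library. The ratios of Nes, Lcn2 and Steap4 overlapped between the groups (exact p = 0.3, 0.6 and 0.4).

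**Figure D4:**
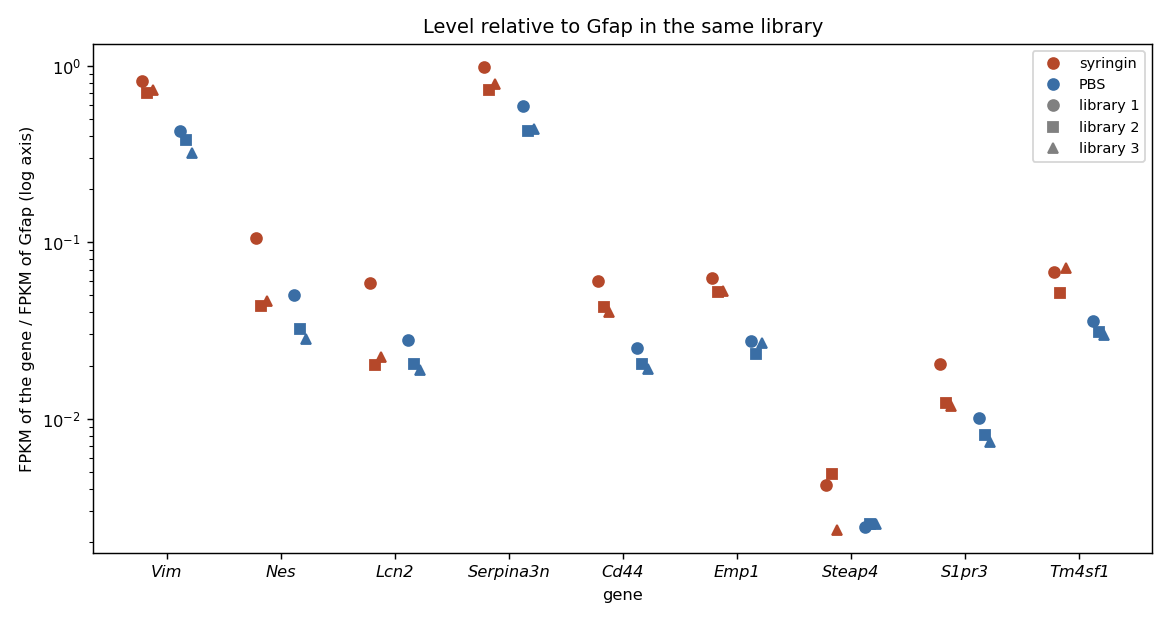
FPKM of each gene divided by the FPKM of Gfap in the same library (log axis), with syringin libraries in red to the left of PBS libraries in blue and marker shape for the library number. The Vim ratios lie between 0.696 and 0.819 in syringin and between 0.319 and 0.424 in PBS cords.

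Other astrocyte genes were grouped in lists, several of which share genes with the 10. The pan-reactive list holds 7 of the 10; its 6 further genes had a median of 0.39 and none passed by edgeR or limma-voom (2 were higher at an unadjusted p under 0.05, and DESeq2 called 1), Timp1, a metalloproteinase inhibitor, being at 0.47 ± 0.14 (edgeR adjusted p = 0.103). In the A2 list, which holds Emp1 and Tm4sf1, all 12 fold changes were positive (median 0.70), but none of the 10 further genes passed by edgeR or limma-voom, while 7 were higher at an unadjusted p under 0.05 and DESeq2 called 4. The endotoxin co-receptor Cd14, also a monocyte gene, and the annexin partner S100a10 were at 1.05 ± 0.32 and 0.47 ± 0.16. Of the 11 A1 genes, Srgn (0.74 ± 0.12) and Ggta1 (0.61 ± 0.13) rose, Fbln5 fell by 0.69 ± 0.14 and 8 did not pass (median -0.18). Srgn encodes serglycin, a proteoglycan of the granules of blood-derived cells, Ggta1 a glycosyltransferase, and Fbln5 an elastic fibre protein. Over all 22114 genes tested, 5214 had an unadjusted p under 0.05 by edgeR and DESeq2 called 3191, in either direction. Whether the lists differ from each other or from all genes was not tested.

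Of 16 genes of resting astrocytes tested, 7 fell, none rose and 9 did not pass (median -0.57). The glutamate transporter gene Slc1a2 fell by 1.00 ± 0.13 on the log2 scale, to 45.6 ± 4.51 FPKM in syringin cords, against 92.8 ± 10.5 FPKM in PBS cords (edgeR adjusted p = 0.0137). The gap junction gene Gjb6 fell by 1.17 ± 0.19, the bicarbonate transporter gene Slc4a4 by 0.82 ± 0.14 and the glypican gene Gpc5 by 0.98 ± 0.17, and Aldoc, Mlc1 and Fgfr3 also fell. The summed level of the 16 genes was 5129 to 6020.1 CPM in the syringin libraries and 7674 to 8839 CPM in the PBS libraries. That of the 10 reactive genes was 9601 to 11747 CPM in the syringin libraries and 8346 to 10225 CPM in the PBS libraries. Most of this second sum is Gfap and Vim, whose log2 fold changes of -0.29 and 0.70 had opposite signs.

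No gene of the gp130 and STAT3 pathway passed by edgeR or limma-voom among 17 tested (median 0.17). At an unadjusted p under 0.05, 4 were higher and 2 lower, and DESeq2 called 2 higher and 1 lower. Over all 22114 genes tested, 5214 had an unadjusted p under 0.05 and DESeq2 called 3191, in either direction. The feedback inhibitor gene Socs3 was nearest, at 0.76 ± 0.18 (edgeR adjusted p = 0.0504), with its 3 syringin values above the PBS values, and the ligand gene Clcf1 was at 0.89 ± 0.30 (adjusted p = 0.127). Among 7 further filament and lamina genes, the neuronal filament gene Ina fell by 0.95 ± 0.11 (edgeR adjusted p = 0.0114) and 6 did not pass. Of these, the nuclear lamins Lmna and Lmnb1 were at 0.68 ± 0.16 and 0.65 ± 0.15, the linker gene Plec at 0.30 ± 0.10, and the filament genes Synm, Des and Prph at 0.02 ± 0.19, 0.40 ± 0.21 and -0.29 ± 0.77. Prph, a filament gene of peripheral neurons, was highest in library 1 of each group, as Scn10a was, at 96.0, 18.4 and 50.1 CPM in syringin libraries 1 to 3, against 128, 28.4 and 44.4 CPM in PBS libraries 1 to 3; with the ganglion covariate its value was -0.55 (edgeR adjusted p = 0.140).

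**Figure D5:**
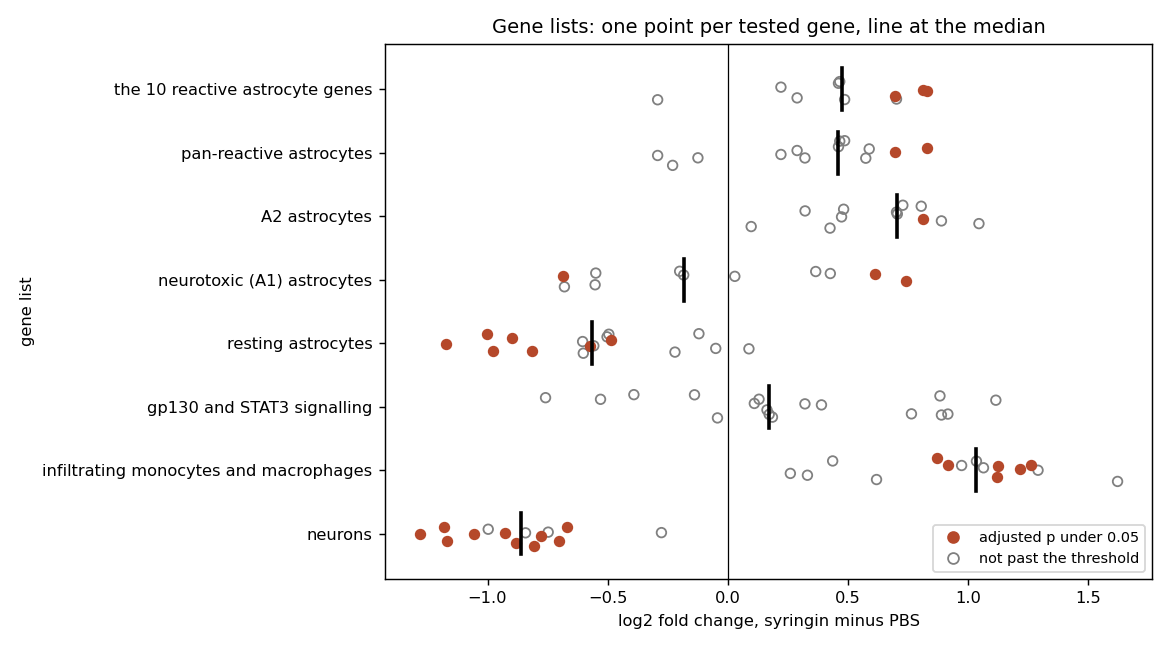
Log2 fold change, syringin minus PBS (x axis), of every tested gene of 8 lists (rows), filled red where the edgeR adjusted p is under 0.05, with a black line at each list's median. The median is 0.48 for the 10 reactive astrocyte genes, 0.70 for the A2 list, -0.18 for the A1 list and -0.57 for resting astrocytes.

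Some of the 10 genes are also expressed by other cells, whose markers were read in the same libraries. Of 15 markers of infiltrating monocytes and macrophages, 6 rose, none fell and 9 did not pass (median 1.03), among them F10 (1.26 ± 0.15), Clec4d (1.12 ± 0.14), the scavenger receptor Msr1 (0.92 ± 0.13) and the galectin Lgals3 (1.13 ± 0.18). Their summed level was 5203 to 12256 CPM in the syringin libraries and 3717 to 4724 CPM in the PBS libraries, with none at 0. The highest sum, in syringin library 2, held 3673 CPM of Lyz2 and 2702 CPM of Gpnmb, which did not pass. Ly6c2 and Ccr2 did not pass either, at 0.44 ± 0.20 and 0.62 ± 0.31. Of 12 endothelial markers, Pecam1 rose by 0.58 ± 0.10 and the others did not pass (median 0.29). Their summed level was 809 to 996 CPM in the syringin and 731 to 827 CPM in the PBS libraries. Of the 12 fold changes 11 were positive, and Slco1a4 was at -0.60 ± 0.20. At an unadjusted p under 0.05 by edgeR 4 were higher and 1 lower, and DESeq2 called 2 higher and 1 lower. Over all 22114 genes tested these counts were 5214 and 3191, in either direction. None of 12 fibroblast and meningeal markers passed by edgeR, DESeq2 or limma-voom, and 0 had an unadjusted p under 0.05 (median -0.23; 1696 to 2667 CPM in syringin, 1669 to 2989 CPM in PBS libraries), and Dcn and Fap were at -0.55 ± 0.25 and -0.53 ± 0.28. No ependymal marker passed by edgeR or limma-voom among 10 tested, with 1 lower at an unadjusted p under 0.05 and 1 called by DESeq2 (median -0.06; 47.4 to 67.9 CPM in syringin, 55.0 to 65.0 CPM in PBS libraries); Rarres2 and Hydin were at -0.53 ± 0.17 and -0.53 ± 0.46, and Sntn was at 0 in 5 of the 6 libraries. The part of macrophages and endothelium in the levels of Vim, Cd44, Emp1 and Tm4sf1 was not tested.

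Neurons and other glia are given for the tissue as a whole. Beside their counts, 5214 of all 22114 genes had an unadjusted p under 0.05 by edgeR and DESeq2 called 3191, in either direction. Of 14 neuronal markers 10 fell and 4 did not pass (median -0.86), with Slc6a5, Slc32a1, Thy1 and Syn2 at -1.18 ± 0.10, -1.17 ± 0.13, -0.67 ± 0.10 and -0.81 ± 0.12. Their summed level was 2014 to 2872 CPM in the syringin libraries and 3993 to 4965 CPM in the PBS libraries, none at 0. No homeostatic microglia gene passed by edgeR or limma-voom among 9 tested, with 3 lower at an unadjusted p under 0.05 and 2 called by DESeq2 (median -0.34; Gpr34 and P2ry12 at -0.67 ± 0.19 and -0.74 ± 0.21), and none of 10 oligodendrocyte genes did, nor by DESeq2, with 1 higher at an unadjusted p under 0.05 (median 0.07; Cldn11 and Mag at 0.28 ± 0.11 and 0.31 ± 0.16). Of 12 Schwann cell markers Ncmap fell by 1.49 ± 0.24 (median -0.12). Of 14 sensory ganglion markers Nefh, which cord neurons also use, fell by 1.28 ± 0.19 and 13 did not pass (median 0.23), and their average log2 CPM, less its mean over all 6, came to 2.30, -2.67 and 1.19 in syringin libraries 1 to 3, against 2.52, -1.47 and -1.86 in PBS libraries 1 to 3. Of the 28 called genes named here outside the 10, edgeR called 12, 7 and 0 without PBS library 1, 2 or 3 and 25, 12 and 11 without syringin library 1, 2 or 3.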

How the data were processed

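RNA was sequenced from 6 cords (3 syringin, 3 PBS) after poly(A) selection with a stranded kit, per the labels' protocols. The submitters' processing notes name HISAT2, StringTie, GRCm38 and mm10. The deposited estimated counts per gene are whole numbers and the authors' FPKM values are scaled by length and library. Only 717 of 34804 shared gene IDs start where GENCODE's GRCm38 annotation puts them, so no deposited positions are printed. Totals were 65.6 to 78.8 (units of 1e+06); 5.02% of listed genes were at 0 in every library.

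Counts were tested as deposited with edgeR 4.0.16 in R 4.3.3 (quasi-likelihood, robust, TMM scaling, filterByExpr with a minimum count of 10 and total of 15), with no covariates, and p-values were Benjamini-Hochberg adjusted over 22114 genes at a threshold of 0.05. The script was tested on simulated data. Alternatives used DESeq2 1.42.0, limma 3.58.1 on log2(FPKM + 0.1) and log2(FPKM + 1), other scaling and filters, counts divided by 4, a correction for transcript length and GC content (values for 96.7% of genes), a ganglion covariate and each library left out. Intervals cover counting or replicate error only, and p-values the spread between these samples.

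The 10 genes and all lists were chosen with earlier results of these data known. From each list up to 4 called genes were named by smallest p, or 2 where none was called, and close relatives or partners of the 10 were named in full. Some further genes were named to show the spread within a list. Promoters came from RefSeq. No explanation was tested, and proteins were not used here.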

Additional observations from a re-analysis of the deposited data

How the results depend on the processing

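edgeR called 1108 genes, of which 3 were among the 10. DESeq2 called 3191 genes and 6 of the 10, the ganglion covariate gave 2585 and 5, and limma on log2(FPKM + 0.1) and log2(FPKM + 1) gave 707 and 715 genes. With each library left out in turn, edgeR called 0 to 1944 genes and 0 to 4 of the 10; without PBS library 3 limma-voom called 0 and 0. The replicate numbers were not shown to pair the samples: deviations of same-numbered libraries correlated at 0.292, 0.123 and 0.052, and not every library correlated best with its own number. With the replicate number as a block 2557 genes were called, 4 of them among the 10, with S1pr3 gained (edgeR adjusted p = 0.0435). Of the calls by edgeR 32.4% were higher in the syringin group, against 43.9% by DESeq2 and 41.53% with the block. The level of a gene, relative to its mean over the 6 libraries, changed with transcript length. Its slope (log2 CPM per doubling of length) was -0.0046, -0.0426 and -0.0642 in syringin libraries 1 to 3. In PBS libraries 1 to 3 it was 0.0428, 0.0186 and 0.05. The length and GC correction gave 461 genes higher and 648 lower, against 359 and 749 without it. The cause of the slopes was not tested.

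Of 1628 log2 fold changes (74 genes, 22 alternatives), 1370 kept direction and side of the threshold, 162 lost and 83 gained a call, and 13 changed sign, each of a gene that did not pass; the cause was not tested. Synm was at -0.0015 without composition factors and -0.0061 with the covariate, and with a library left out it ranged over -0.1257 to 0.2571 (negative without syringin library 1 or PBS library 2 or 3); without PBS library 3 it was -0.0985 by DESeq2 and -0.0767 by limma-voom. S1pr1 and Sgpp1 were at 0.0351 and 0.006 after the length and GC correction. With a library left out, Prph ranged over -0.9746 to 0.593 (positive without PBS library 1 or syringin library 2), Lcn2 over -0.2229 to 0.4481 (negative without syringin library 1) and Spns2 over -0.0698 to 0.1664 (negative without syringin library 3). With 3 libraries in each group, a single library decided many calls, and changes of the size seen for Gfap or Nes were not detectable above their spread.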

Other observations

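Neutrophils store lipocalin 2 in granules, and their marker genes differed in direction. The receptor gene Trem1 rose by 1.36 ± 0.28 (edgeR adjusted p = 0.0400) and the collagenase gene Mmp8 by 0.80 ± 0.18 (adjusted p = 0.0462), while the myeloperoxidase gene Mpo, of early granulocyte stages, fell by 1.99 ± 0.34 (adjusted p = 0.0237), and 11 of 14 did not pass (median -0.15). Of the 14 log2 fold changes 7 were positive and 7 negative. Ngp, Ltf and Camp did not pass, at -1.70 ± 0.43, -1.57 ± 0.51 and -1.31 ± 0.57 (edgeR adjusted p = 0.0650, 0.114 and 0.213). DESeq2 called 2 of the 14 higher and 3 lower, and limma-voom 0 higher and 1 lower. Of all 22114 genes DESeq2 called 1401 higher and 1790 lower. Without PBS library 3 edgeR called none of the 3 genes. Mpo was low, at 47, 29 and 31 counts in syringin libraries 1 to 3, against 111, 186 and 117 in PBS libraries 1 to 3.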
